A study of Mus musculus with 15 samples.

Results

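The tumor necrosis factor (TNF) superfamily was followed across 3 cell populations sorted from mouse melanomas. Genes were taken by symbol: Tnf, Lta, Ltb, Ltbr, Fas, Fasl, Cd40, Cd40lg, Cd27, Cd70, Ngfr, Edar, Eda2r and every numbered Tnfsf (ligand) or Tnfrsf (receptor) symbol. Of the 53465 genes in the table, 44 had such a symbol, and 40 of these reached a mean of 5 normalized counts over the 15 libraries, as did 25549 genes in all. A normalized count is the number of reads on a gene divided by 1 size factor per library. The 40 members comprised 13 ligands and 27 receptors. The ligands Cd40lg, Tnfsf13, Cd70 and Lta fell under the minimum, with means of 4.62, 3.50, 2.10 and 1.36 normalized counts, and the lowest member above it was Tnfsf4, with 7.58.

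The cells came from tumors of B16-F0, a mouse melanoma line, grown in CAG-GFP mice and collected on day 15. Endovascular progenitors (EVP), transit amplifying cells (TA) and definitive differentiated cells (D) were sorted from the same gate of Lin-CD34+ GFP+ cells, with 5 libraries each. EVP were CD31 low and VEGFR2 low, TA were CD31 intermediate and VEGFR2 low, and D were CD31 high and VEGFR2 high. All 3 populations therefore shared the host, the tumor line and the time, and mice of the study were of both sexes and 8 to 14 weeks old. The GFP of the host is expressed ubiquitously and so marks host cells of any type. No label says whether the 5 libraries of a population came from separate animals, so the p-values measure the spread between libraries, which may be technical.

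TNF superfamily ligands are mostly trimeric membrane proteins, some of which are shed, and they signal by clustering receptors on a neighboring cell. A group of receptors carries a cytoplasmic death domain that can recruit caspase-8 or, through RIPK1 and TRAF adaptors, the transcription factor NF-kB. Other receptors bind TRAF proteins directly, and decoy receptors take up ligand without signaling. In vessels the family is best known for the activation of endothelium by TNF and for the co-stimulation of lymphocytes by cells that carry its ligands.

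Libraries held 5394356 to 26513073 reads on genes. The 3 libraries numbered 1 had the most background reads. In them 75.9% to 96.2% of 1406 olfactory receptor genes, which should be silent in these cells, had a read, against 2.70% to 65.1% in the other 12. TA replicate 3 (65.1%), EVP replicate 2 (55.4%) and TA replicate 2 (51.7%) came next, followed by D replicate 2 at 21.5%. In EVP replicate 1, which was the shallowest library, 22 of the 40 members were at or under the median level of the olfactory receptor genes per kb of exon. The 8 endothelial markers summed to 100530 to 160321 normalized counts in D, 5735 to 71703 in TA and 378 to 3683 in EVP, and all 8 were higher in D than in EVP. Pecam1, which encodes the sort marker CD31, was at 119 to 613 normalized counts in EVP and at 19114 to 32189 in D. The 7 fibroblast markers ran the opposite way, with sums of 803484 to 1446099 in EVP, 186627 to 600248 in TA and 979 to 4047 in D, and all 7 were higher in EVP than in D. No gene of either list was at or under 3 reads in every library of a population. Whether a member's level followed the share of such cells was not tested, and in bulk samples fewer cells of a type and less RNA per cell cannot be told apart.

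**Figure D1:**
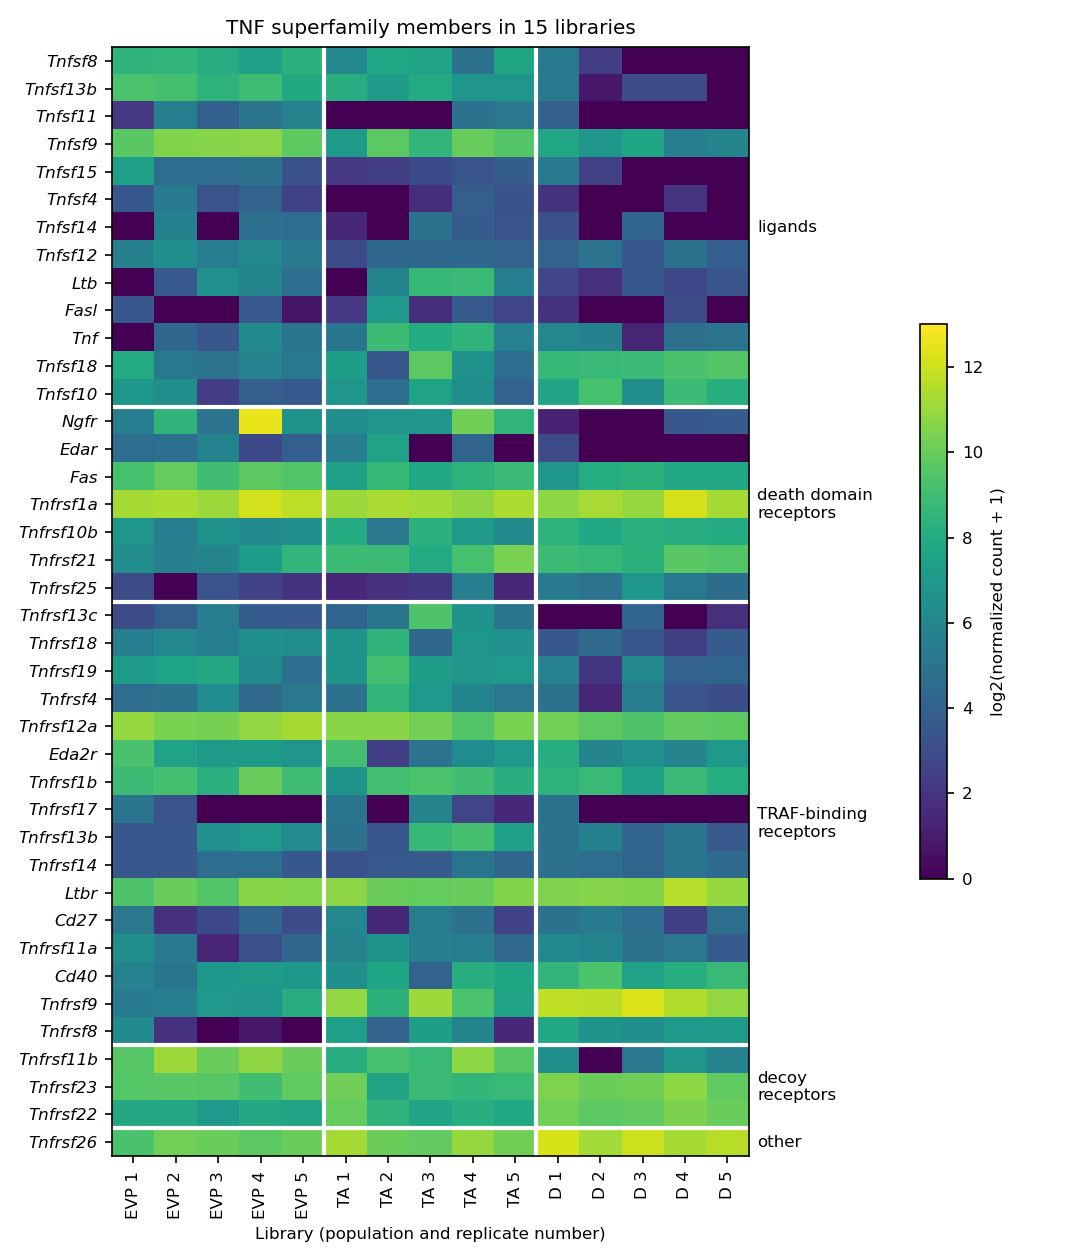
Level of each of the 40 members (rows, grouped by role and ordered within a role by the EVP minus D difference) in each of the 15 libraries (columns), as log2(normalized count + 1). Tnfsf8 and Tnfsf13b are bright in all 5 EVP libraries and dark in most D libraries, Tnfrsf9 and Tnfrsf8 run the other way, and Tnfrsf1a and Ltbr are bright throughout.

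EVP and D differed in 24 of the 40 members (60%), where 19.0% of all genes tested passed the same threshold (limma, adjusted p under 0.05). Of these, 14 were higher in EVP (11.6% of all genes) and 10 were higher in D (7.46% of all genes). Among the ligands 7 were higher in EVP and 2 in D, and among the receptors 7 were higher in EVP and 8 in D. For 19 members the 5 EVP libraries and the 5 D libraries did not overlap (17.7% of all genes), and 18 of these passed the threshold as well (15.2% of all genes). The median difference over the 40 members was 0.75 on the log2 scale, and over all genes tested it was 0.46. With quantile normalization the median of all genes moved to -0.05 and that of the members to 0.10. The split then became 6 members higher in EVP and 10 in D, and that of all genes 1920 and 1983 in place of 2952 and 1907. Scaling the libraries to the same total gave 10 and 11 members, with 2656 and 2178 of all genes. For edgeR on the whole reads these were 8 and 8 members, with 2124 and 1725 of all genes. Leaving out each library in turn kept 17 of the 24 calls throughout, and 13 passed in every alternative fit: Fas, Tnfrsf10b, Tnfrsf11b, Tnfrsf12a, Tnfrsf21, Tnfrsf22, Tnfrsf26, Tnfrsf9, Tnfsf10, Tnfsf13b, Tnfsf18, Tnfsf8 and Tnfsf9. Of the ligands among these 13, Tnfsf8, Tnfsf9 and Tnfsf13b were higher in EVP and Tnfsf10 and Tnfsf18 in D. No called member changed sign in any alternative fit.

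**Figure D2:**
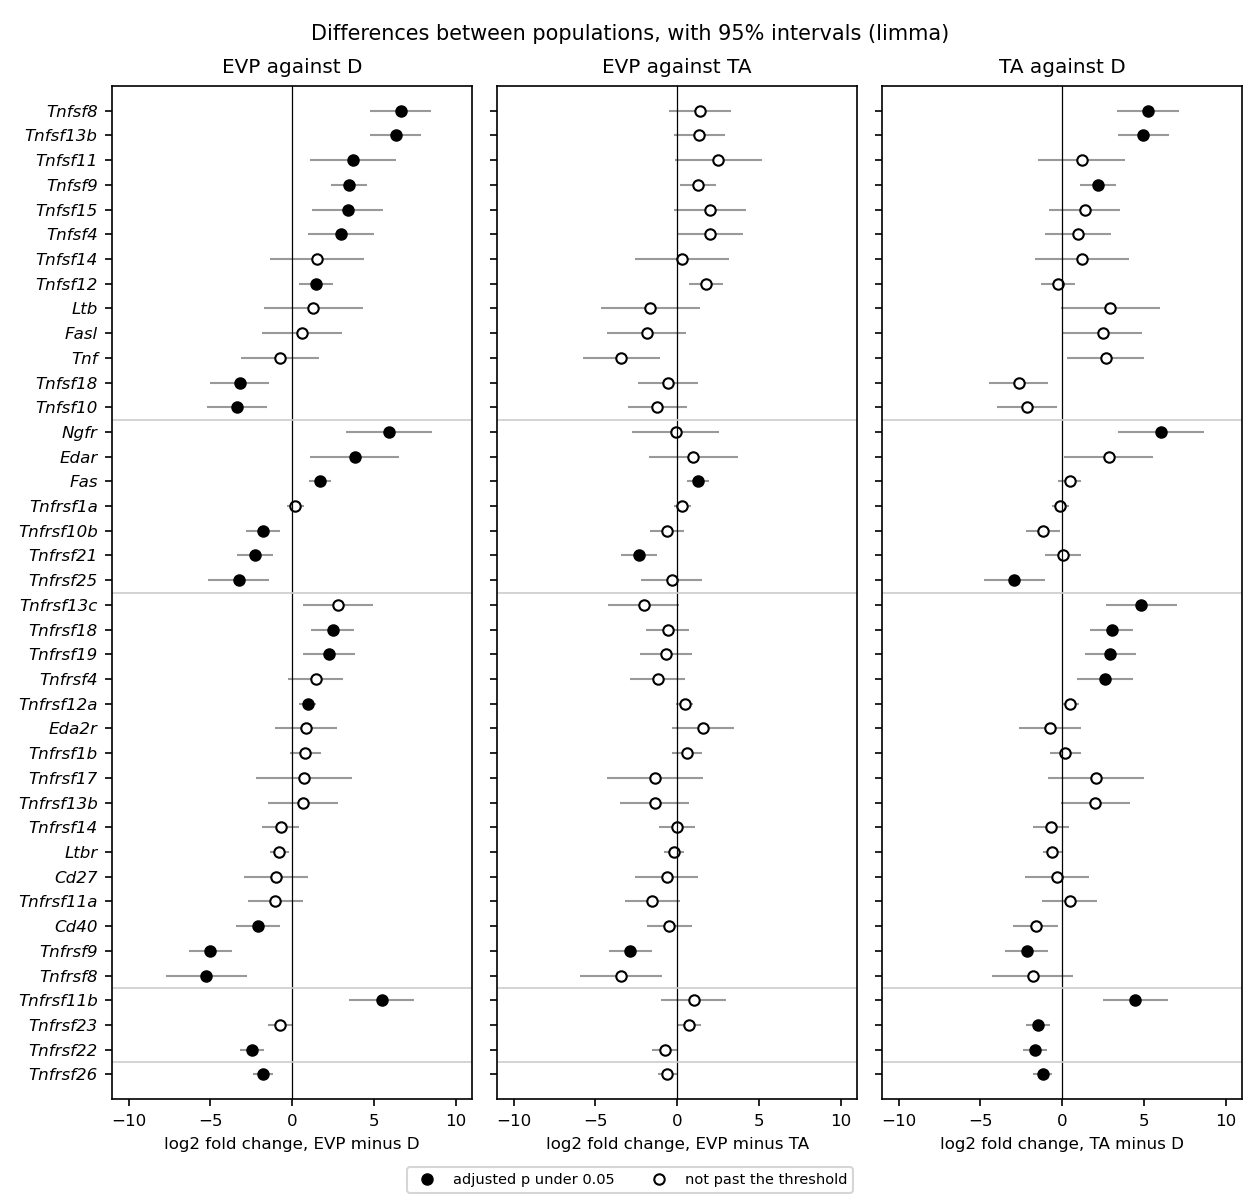
Log2 fold change of each member in each of the 3 comparisons of populations, on the log2(normalized count + 1) scale, with 95% intervals from limma as lines. Filled points passed an adjusted p of 0.05: 24 members in the left panel, 3 in the middle one and 14 in the right one, with the ligands at the top mostly to the right in the first panel.

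Tnfsf8 and Tnfsf13b were the ligands with the largest difference. Tnfsf8 (ENSMUSG00000028362, GRCm38 chromosome 4, 63831308 to 63861347, minus strand) encodes the ligand of CD30. Its normalized counts were 344, 379, 269, 171 and 317 in EVP, 65.5, 216, 181, 29.0 and 198 in TA and 38.4, 4.08, 0, 0 and 0 in D. Every EVP library was above every D library, and D replicate 1 was the highest of its population. The difference between EVP and D was 6.63 ± 0.89 (SE) on the log2 scale (adjusted p = 2.4e-05), and between TA and D it was 5.24 ± 0.89 (adjusted p = 0.000666). Tnfsf13b (ENSMUSG00000031497, chromosome 8, 10006467 to 10039072, plus strand) encodes BAFF, a survival factor of B cells. It was at 636, 572, 333, 492 and 235 in EVP, 276, 139.8, 250.01, 107 and 116 in TA and 37.1, 0.816, 7.03, 6.76 and 0 in D. Neither EVP nor TA overlapped D, and the differences were 6.32 ± 0.74 between EVP and D (adjusted p = 5.49e-06) and 4.96 ± 0.74 between TA and D (adjusted p = 0.000201).

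Tnfsf9 (ENSMUSG00000035678, chromosome 17, 57105385 to 57107757, plus strand), the ligand of the co-stimulatory receptor 4-1BB, was the ligand with the highest mean per kb of exon in EVP and TA. Its normalized counts were 818, 1488, 1579, 1692 and 869 in EVP, 133, 837, 381, 1019 and 731 in TA and 218, 116, 205, 46.6 and 60.4 in D. The EVP libraries lay above all D libraries, while TA replicate 1 lay within the range of D. The difference was 3.50 ± 0.53 between EVP and D (adjusted p = 8.08e-05) and 2.20 ± 0.53 between TA and D (adjusted p = 0.00892). Divided by exon length, its mean was 999 normalized counts per kb in EVP, behind Tnfrsf1a alone among the 40 members, 481 in TA and 100.2 in D. Over all 13 ligands the sum per kb was 915 to 1636 in EVP, 284 to 1432 in TA and 424 to 500.01 in D. Without Tnfsf9 the other 12 summed to 241 to 423 in EVP, 181 to 986 in TA and 266 to 449.9 in D, which overlapped, so the higher sum of EVP was that of Tnfsf9. A long noncoding gene on the opposite strand covers 14.9% of the exon length of Tnfsf9. The paper's library methods (Smart-Seq2 and Nextera XT) describe no step that keeps the strand of the RNA, and the strand setting of the counting is not given. Reads of both genes may therefore be mixed there.

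Tnfsf15, Tnfsf4, Tnfsf11 and Tnfsf12 were lower in abundance and also higher in EVP than in D. Tnfsf15, which encodes TL1A, was at 172, 24.8, 23.7, 28.0 and 8.3 normalized counts in EVP and at 38.4, 4.90, 0, 0 and 0 in D, a difference of 3.39 ± 1.04 (adjusted p = 0.028). EVP replicate 1 was the highest EVP library, D replicate 1 was the highest D library, and the populations overlapped. Tnfsf4, the OX40 ligand, was at 10.5, 41.8, 9, 16.8 and 4.84 in EVP and at 2.75, 0, 0, 3 and 0 in D, without overlap, a difference of 3.01 ± 0.95 (adjusted p = 0.0339). The closest libraries were EVP replicate 5 with 7 reads and D replicate 4 with 4 reads. EVP replicate 1 had 3 reads, under the olfactory receptor level per kb of that library. Tnfsf11, which encodes RANKL, was at 3.51, 47.0, 15.5, 31.2 and 54.6 in EVP and at 15.1, 0, 0, 0 and 0 in D, a difference of 3.72 ± 1.26 (adjusted p = 0.047). The overlap came from EVP replicate 1 and D replicate 1. Tnfsf12, which encodes TWEAK, was at 49.2, 81.0, 42.5, 67.1 and 37.3 in EVP and at 16.5, 30.2, 10.9, 27.8 and 13.9 in D, without overlap, a difference of 1.48 ± 0.49 (adjusted p = 0.0439). The readthrough gene Tnfsfm13 overlaps 48.3% of the exon length of Tnfsf12, so reads of the 2 genes are hard to tell apart.

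These calls were close to the threshold and did not stand without single libraries. Tnfsf12 lost its call without any of 11 libraries (EVP 1 to 5, TA 4 and 5, D 1, 3, 4 and 5), with adjusted p up to 0.117, and with quantile normalization it was 0.31 on the log2 scale (adjusted p = 0.912). Tnfsf11 lost it without any of 8 (EVP 2 to 5 and D 2 to 5), with adjusted p up to 0.11. Tnfsf4 lost it without any of 6 (EVP 2, 3 and 4, D 2, 3 and 5), with adjusted p up to 0.102, and Tnfsf15 without any of 5 (EVP 1 and 4, D 3, 4 and 5), with adjusted p up to 0.0808. In edgeR's quasi-likelihood test on the whole reads the adjusted p was 0.135 for Tnfsf12, 0.295 for Tnfsf11, 0.16 for Tnfsf4 and 0.307 for Tnfsf15.

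The 2 ligands that were higher in D were Tnfsf18 and Tnfsf10. Tnfsf18 (ENSMUSG00000066755, chromosome 1, 161494655 to 161505290, plus strand) encodes the ligand of the co-stimulatory receptor GITR. It was at 415, 452, 463, 605 and 746 normalized counts in D, at 249, 36.6, 30.3, 53.5 and 36.6 in EVP and at 155, 10.5, 835, 98.7 and 26.2 in TA. All D libraries were above all EVP libraries, and TA replicate 3 was above all 5 D libraries. The difference was -3.20 ± 0.86 between EVP and D (adjusted p = 0.0124). Between TA and D it was -2.65 ± 0.86 (adjusted p = 0.0527), and it passed without TA replicate 3 (-3.48, adjusted p = 0.00345), TA replicate 1 (adjusted p = 0.0484) or EVP replicate 1 (adjusted p = 0.0411). Tnfsf10, which encodes the death ligand TRAIL, was at 189, 596, 83.6, 482 and 286 in D and at 123, 83.6, 4.09, 14.4 and 12.4 in EVP. EVP replicate 1 was above the lowest D library, EVP replicate 2 was level with it at 83.6, and the difference was -3.38 ± 0.86 (adjusted p = 0.00885).

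Tnf, Ltb, Fasl and Tnfsf14 did not pass in any comparison. Tnf, the cytokine that gives the family its name, was at 0, 19.6, 10.6, 74.3 and 31.8 normalized counts in EVP, at 32.7, 489, 258, 346 and 53.6 in TA and at 63.2, 51.4, 1.56, 27.0 and 30.8 in D. TA replicates 2, 3 and 4 were above every library of the other 2 populations. The differences of Tnf were -3.41 ± 1.12 between EVP and TA (adjusted p = 0.115) and 2.67 ± 1.12 between TA and D (adjusted p = 0.147). DESeq2 on the whole reads gave an adjusted p of 0.0123 and 0.0195 for these comparisons of Tnf. Without the 3 libraries numbered 1, Tnf passed between TA and D in limma as well (3.57, adjusted p = 0.0359). The 7 macrophage markers summed to 7649 to 38218 normalized counts in TA, 1873 to 11395 in EVP and 3653 to 12343 in D. Of these markers, 5 of 7 were higher in TA than in EVP and 1 of 7 was higher in TA than in D. The sums of the 5 mast cell markers were 21319, 81897, 64444, 93522 and 4074 in TA replicates 1 to 5. They were 5.53 to 14729 in EVP and 0 to 199.8 in D, and all 5 markers were higher in TA than in D. None of the 5 passed between EVP and TA. The part of macrophages or mast cells in the values of Tnf was not tested. Ltb, which encodes the membrane subunit of lymphotoxin, was at 416 and 445 in TA replicates 3 and 4 and at 0 to 94.1 in the other 13 libraries. Fasl, the ligand of Fas, was at 127 in TA replicate 2 and at most 11.8 elsewhere, and Tnfsf14, which encodes LIGHT, was at most 52.3 in any library.

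Among the 7 death domain receptors, Fas, Ngfr and Edar were higher in EVP than in D, Tnfrsf10b, Tnfrsf21 and Tnfrsf25 were higher in D, and Tnfrsf1a did not pass. Fas (ENSMUSG00000024778, chromosome 19, 34290659 to 34327770, plus strand) encodes the receptor CD95. Its normalized counts were 597, 977, 524, 831 and 715 in EVP, 169, 420.2, 215, 332 and 430.3 in TA and 113, 267, 320.5, 224 and 211 in D. Every EVP library lay above all 10 libraries of TA and D. The difference was 1.72 ± 0.32 from D (adjusted p = 0.000656) and 1.27 ± 0.32 from TA (adjusted p = 0.0349), and Fas was the 1 member that was higher in EVP than in TA. That call from TA was lost without any of 7 libraries (EVP 2 to 5, TA 1, 3 and 4), with adjusted p up to 0.111.

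Ngfr encodes the neurotrophin receptor p75NTR. It was at 45.6, 345, 29.5, 6359 and 98.2 normalized counts in EVP, at 81.0, 111, 112, 1162 and 362 in TA and at 1.37, 0, 0, 10.5 and 12.1 in D. Neither EVP nor TA overlapped D, and replicate 4 was the highest library of both EVP and TA. The value of EVP replicate 1 was under the olfactory receptor level per kb of that library. The differences were 5.94 ± 1.25 between EVP and D (adjusted p = 0.00199) and 6.04 ± 1.25 between TA and D (adjusted p = 0.00327), and with quantile normalization the first was 4.55 (adjusted p = 0.053). The 6 melanoma markers summed to 29702 to 67272 normalized counts in EVP, 69248 to 175671 in TA and 18157 to 47767 in D, all 6 were higher in TA than in D and 1 was higher in EVP than in D, and their part in the values of Ngfr was not tested. The sort took cells with the GFP of the host, and the sorted libraries still held transcripts of these melanoma markers. Their sum was 37457 in EVP replicate 4 and 108251 in TA replicate 4. Edar, the ectodysplasin receptor of skin appendages, was at 24.6, 26.1, 56.4, 6.39 and 13.8 in EVP and at 6.86, 0, 0, 0 and 0 in D. D replicate 1 was just above the lowest EVP library. The difference of 3.82 ± 1.29 (adjusted p = 0.0471) was lost without any of 9 libraries (EVP 1, 2, 3 and 5, TA 4, D 2 to 5), with adjusted p up to 0.114.

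Tnfrsf10b, the mouse TRAIL receptor DR5, was at 343, 216, 317, 276 and 250.2 normalized counts in D and at 116, 43.1, 99.8, 73.5 and 89.9 in EVP. All D libraries were above all EVP libraries, and the difference was -1.78 ± 0.49 (adjusted p = 0.0156). Tnfrsf21, which encodes death receptor DR6, was low in EVP alone, at 80.8, 49.6, 58.9, 152 and 378, against 474, 473, 250.01, 603 and 1348 in TA and 489, 408, 323, 809.8 and 716 in D. EVP replicate 5 was the 1 EVP library within the range of the others. The differences of EVP were -2.27 ± 0.51 from D (adjusted p = 0.00347) and -2.33 ± 0.51 from TA (adjusted p = 0.0168). The latter call was lost without EVP replicate 2 (adjusted p = 0.0577) or EVP replicate 3 (adjusted p = 0.0537).

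Tnfrsf25, which encodes DR3, the receptor of TL1A, was at 41.2, 30.2, 117, 37.6 and 23.0 normalized counts in D, at 7.02, 0, 9, 4.8 and 2.77 in EVP and at 1.72, 2.64, 3.35, 45.4 and 1.87 in TA. TA replicate 4 was the 1 library of EVP or TA that reached the range of D. The difference was -3.27 ± 0.89 between EVP and D (adjusted p = 0.0135), with an adjusted p of 0.0732 in edgeR. Between TA and D it was -2.92 ± 0.89 (adjusted p = 0.038), lost without any of 9 libraries (TA 1, 2, 3 and 5, D 1 to 5), with adjusted p up to 0.114. Tnfrsf1a, the main TNF receptor TNFR1, was the highest member per kb in EVP (1149.8 normalized counts per kb) and TA (904), and the third of D (1028). Its normalized counts were 2391, 2729, 2109, 4383 and 3284 in EVP and 1772, 2558, 1981, 4562 and 2443 in D, which overlapped, with a difference of 0.20 (95% interval -0.31 to 0.70).

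The sequences before the starts of Fas, Tnfrsf8 and Tnfrsf25 are shown because, of the members with a promoter sequence and a call between EVP and D, they were the ones whose upstream 250 bases held one of the 3 motifs searched. RefSeq (GRCm38.p6) had a promoter for 32 of the 40 members. The motifs, searched on both strands, were a kappaB motif, to which NF-kB binds (GGGNN followed by TTTCC, in 1.40% of 27025 promoters), an AP-1 motif (TGANTCA, in 6.87%) and an ETS motif (ACCGGAAG, in 1.70%). Of the 10 members higher in EVP with a promoter, Fas had an AP-1 match, and of the 6 higher in D, Tnfrsf8 had an AP-1 match and Tnfrsf25 a kappaB match. Of the other 16, Ltb had a kappaB, Tnfsf14 an AP-1 and Tnfrsf1a an ETS match. A match is a stretch of letters and not a bound site. Capitals mark the match in the 250 bases that end before the start, read 5′ to 3′ on the gene's strand: Fas at chr19:34290409-34290658 (plus), Tnfrsf8 at chr4:145315165-145315414 (minus) and Tnfrsf25 at chr4:152115684-152115933 (plus).
Fas: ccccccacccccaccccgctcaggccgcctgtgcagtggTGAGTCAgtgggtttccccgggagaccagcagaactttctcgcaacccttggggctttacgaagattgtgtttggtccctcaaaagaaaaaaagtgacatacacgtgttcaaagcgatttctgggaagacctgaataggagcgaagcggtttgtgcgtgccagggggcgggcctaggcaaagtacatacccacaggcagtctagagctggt
Tnfrsf8: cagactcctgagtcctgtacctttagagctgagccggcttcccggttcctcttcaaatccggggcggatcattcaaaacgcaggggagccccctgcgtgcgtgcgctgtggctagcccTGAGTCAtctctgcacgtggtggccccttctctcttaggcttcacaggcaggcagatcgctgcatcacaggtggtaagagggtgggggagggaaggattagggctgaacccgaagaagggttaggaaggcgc
Tnfrsf25: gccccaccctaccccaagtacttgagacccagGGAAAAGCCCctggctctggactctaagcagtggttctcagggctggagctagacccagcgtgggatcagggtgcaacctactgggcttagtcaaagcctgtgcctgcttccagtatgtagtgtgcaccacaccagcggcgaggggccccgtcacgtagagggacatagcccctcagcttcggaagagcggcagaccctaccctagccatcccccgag

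Of the 16 receptors that bind TRAF proteins, Tnfrsf12a, Tnfrsf18 and Tnfrsf19 were higher in EVP than in D, and Tnfrsf9, Tnfrsf8 and Cd40 were higher in D. Tnfrsf9 (ENSMUSG00000028965, chromosome 4, 150914562 to 150946102, plus strand) encodes 4-1BB, known from activated lymphocytes. It was at 3458, 3268, 4980.0, 2907 and 1879 normalized counts in D, at 42.1, 45.7, 131, 114 and 278 in EVP and at 1918, 329, 2219.9, 628 and 192 in TA. The D libraries were above all EVP libraries, and the TA libraries spanned the gap. Between EVP and D the difference was -5.02 ± 0.62 (adjusted p = 1.06e-05), and with 1212 normalized counts per kb Tnfrsf9 was the highest member of D. The 7 T cell markers summed to 361 to 487 normalized counts in D and 66.6 to 393 in EVP, 1 of 7 (Lck) was higher in D, and Cd3d and Cd8a were at or under 3 reads in all 5 D libraries. The differences of Tnfrsf9 that involve TA, -2.86 ± 0.62 between EVP and TA (adjusted p = 0.0165) and -2.16 ± 0.62 between TA and D (adjusted p = 0.0287), were less firm. The first was lost without EVP replicate 2 (adjusted p = 0.0568), and the second without TA 2, 4 or 5 or D 2, 3 or 4 (adjusted p up to 0.0767) or with quantile normalization (adjusted p = 0.203).

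Tnfrsf8 (ENSMUSG00000028602, chromosome 4, 145267137 to 145315164, minus strand) encodes CD30. It was at 221, 103, 89.9, 132 and 135 normalized counts in D and at 73.7, 2.61, 0, 0.799 and 0 in EVP, with EVP replicate 1 the highest of its population and still below every D library. The difference was -5.24 ± 1.18 (adjusted p = 0.00343), with an adjusted p of 0.132 in edgeR and 0.0577 in DESeq2. In TA it was at 162, 15.8, 157, 57.2 and 1.87, and its difference of -3.44 ± 1.18 between EVP and TA (adjusted p = 0.135) passed without EVP replicate 1 (adjusted p = 0.0231) or TA replicate 5 (adjusted p = 0.0265). Cd40, a receptor of antigen-presenting cells and of activated endothelium, was at 379, 638, 179, 276 and 432 in D and at 52.7, 32.7, 122, 133 and 122 in EVP. The populations did not overlap, and the difference of -2.10 ± 0.64 (adjusted p = 0.0286) was lost without EVP 1 or 2 or D 2 or 5 (adjusted p up to 0.084), and without the 3 libraries numbered 1 (adjusted p = 0.161).

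Tnfrsf12a, which encodes the TWEAK receptor FN14, was abundant in all populations, at 1969.7, 1334, 1278, 1889 and 2395 normalized counts in EVP and 1214, 853, 653, 939 and 865 in D. EVP and D did not overlap, and the difference was 0.96 ± 0.25 (adjusted p = 0.00937). Tnfrsf18, which encodes GITR, was at 45.6, 65.3, 47.4, 89.5 and 85.7 in EVP, 103, 356, 19.0, 118 and 94.7 in TA and 11, 21.2, 10.2, 4.51 and 12.7 in D. EVP and D did not overlap, though EVP replicate 1 was under the olfactory receptor level per kb of that library. The differences were 2.47 ± 0.62 between EVP and D (adjusted p = 0.00806) and 3.04 ± 0.62 between TA and D (adjusted p = 0.00307). With quantile normalization neither passed (1.27, adjusted p = 0.541, and 2.33, adjusted p = 0.214). An antisense gene covers 27.2% of the exon length of Tnfrsf18, for which the same limit on strand holds. Tnfrsf19, which encodes TROY, was at 144, 183, 232, 72.7 and 25.6 in EVP, 107, 568, 154, 109 and 131 in TA and 53.5, 3.27, 67.2, 15.8 and 17.5 in D. TA lay above D throughout (2.95 ± 0.75, adjusted p = 0.0133, and 1.97 with 0.0933 under quantile normalization), while EVP overlapped D. That difference of 2.25 ± 0.75 (adjusted p = 0.0432) was lost without any of 9 libraries (EVP 1 to 4, TA 4 and 5, D 2, 4 and 5), with adjusted p up to 0.124, and with quantile normalization (1.1, adjusted p = 0.377).

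The remaining 10 did not pass between EVP and D. Ltbr, the lymphotoxin beta receptor, was at 664, 1056, 719, 1642 and 1539 normalized counts in EVP and 1428, 1578, 1460.1, 2952 and 1987 in D. EVP replicates 4 and 5 overlapped D, and the difference of -0.78 ± 0.28 (adjusted p = 0.0636) passed without either of them (adjusted p = 0.0297 and 0.0364). Tnfrsf1b, the second TNF receptor, was at 481, 574, 303, 1028 and 494 in EVP and 334, 426, 161, 433 and 268 in D, a difference of 0.80 (95% interval -0.14 to 1.74). Tnfrsf4, which encodes OX40, was higher in TA than in D (2.63 ± 0.80, adjusted p = 0.0394), with 29.3, 391, 124, 56.4 and 34.9 in TA and 28.8, 1.63, 44.6, 9.77 and 7.86 in D. The populations overlapped, and the call was lost without any of 7 libraries (EVP 5, TA 2, 3 and 4, D 2, 4 and 5), with adjusted p up to 0.111, and with quantile normalization (1.40, adjusted p = 0.509). Eda2r, Tnfrsf11a, Tnfrsf14, Tnfrsf17, Tnfrsf13b and Cd27 passed in no comparison, and their means ranged from 5.16 to 39.4 normalized counts per kb in EVP.

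The secreted decoy Tnfrsf11b (ENSMUSG00000063727, chromosome 15, 54250619 to 54278484, minus strand) encodes osteoprotegerin, which binds RANKL and TRAIL. It was at 790.0, 2195, 1051, 1832 and 1035 normalized counts in EVP, 286, 589.9, 449.8, 1772 and 781 in TA and 89.2, 0, 34.4, 112 and 55.0 in D. Neither EVP nor TA overlapped D, with differences of 5.47 ± 0.94 (adjusted p = 0.000323) and 4.46 ± 0.94 (adjusted p = 0.00382). The TRAIL decoys of the mouse, Tnfrsf22 and Tnfrsf23, leaned to D. Tnfrsf22 was at 1201, 847, 937, 1393 and 1052 in D, 232, 229.9, 127, 226 and 191 in EVP and 976, 345, 189.7, 297 and 220.4 in TA. EVP and D did not overlap (-2.44 ± 0.35, adjusted p = 5.67e-05), and TA replicate 1 was the 1 TA library within the range of D (-1.67 ± 0.35, adjusted p = 0.00388). Tnfrsf23 was at 1436, 1094, 1147, 1752 and 898 in D and 762, 815, 798, 517 and 897 in EVP, without overlap but with the closest libraries at 898 and 897, and its difference of -0.72 ± 0.35 did not pass (adjusted p = 0.19). Between TA and D it did pass (-1.46 ± 0.35, adjusted p = 0.00914).

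Tnfrsf26, a receptor of the same locus with no assigned class here, was at 4669, 2354, 4138, 2461 and 3135 normalized counts in D, 614, 1197, 1056, 859 and 1069.7 in EVP and 2419.9, 1069.8, 945, 1984 and 1141 in TA. D lay above EVP throughout, with -1.79 ± 0.28 from EVP (adjusted p = 0.000126) and -1.20 ± 0.28 between TA and D (adjusted p = 0.00784). Of the stretches of 76 bases, the read length, in the transcripts of Tnfrsf22, 12.5% also occurred in Tnfrsf23, and 12.9% of those of Tnfrsf23 occurred in Tnfrsf22. A single read from such a stretch matches both genes. Reads were paired, and how often the mate tells the genes apart was not tested. Tnfrsf26 shared none with another gene of the family.

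Seen from TA, 3 members differed from EVP (7.5%, with 3.50% of all genes), namely Fas, Tnfrsf21 and Tnfrsf9. Fas was higher in EVP (1.56% of all genes) and the other two in TA (1.94% of all genes). None of the 3 passed in limma without the 3 libraries numbered 1, where 11 members had an unadjusted p under 0.05, or without TA replicates 3 and 4, where 8 did. The libraries of EVP and TA did not overlap for 2 members, Fas and Tnfsf12 (4.29% of all genes), of which Fas passed as well (2.14% of all genes), and the difference of Tnfsf12 was 1.74 (adjusted p = 0.0631). From D, 14 differed (35%, with 12.5% of all genes), 9 of them higher in TA (8.21% of all genes) and 5 higher in D (4.31% of all genes). The 9 were Ngfr, Tnfsf8, Tnfsf13b, Tnfrsf13c, Tnfrsf11b, Tnfrsf18, Tnfrsf19, Tnfrsf4 and Tnfsf9, and the 5 were Tnfrsf25, Tnfrsf9, Tnfrsf22, Tnfrsf23 and Tnfrsf26. The libraries of TA and D did not overlap for 4 members, Tnfrsf19, Ngfr, Tnfrsf11b and Tnfsf13b (9.25% of all genes), and all 4 passed the threshold (7.84% of all genes). With quantile normalization 5 members were higher in TA and 6 in D, while the median of all genes moved from 0.24 to -0.10. Both comparisons use the TA libraries and the comparisons with D share the D libraries, so they are not independent. The mean of TA on the log2 scale lay between those of EVP and D for 19 of the 24 members that differed between EVP and D (79.2%), and for 86.7% of all 4859 genes that did. The exceptions were Ngfr, Tnfrsf18, Tnfrsf19, Tnfrsf21 and Tnfsf12.

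The TA libraries differed among themselves in the receptors of BAFF, which mark B cells and plasma cells. Tnfrsf13c, the BAFF receptor, was at 17.2, 32.5, 662, 99.5 and 30.5 normalized counts in TA, 7.02, 14.4, 44.2, 12.8 and 12.4 in EVP and 0, 0, 18.0, 0 and 2.42 in D. TA replicate 3 was far above the other TA libraries. The difference was 4.85 ± 1.02 between TA and D (adjusted p = 0.00372), and 3.58 with quantile normalization (adjusted p = 0.112). Between EVP and D it was 2.79 ± 1.02 (adjusted p = 0.0685), which passed without TA replicate 3 (adjusted p = 0.0343) or D replicate 3 (adjusted p = 0.0166). Tnfrsf13b, which encodes TACI, was at 419 and 573 in TA replicates 3 and 4 and at most 176 in the other 13 libraries. The 4 B cell markers summed to 4242 and 2413 normalized counts in these 2 libraries, to 77.6 to 394 in the other TA libraries, to 95.4 to 652 in EVP and to 9.80 to 257 in D, and 1 of the 4 (Ms4a1) was higher in TA than in D. The 7 pan-leukocyte markers summed to 24475 in TA replicate 4, the highest library, and 5 of the 7 were higher in TA than in D. No marker of either list was at or under 3 reads in all libraries of a population. The gate was against a lineage cocktail meant to remove blood cells, and the part of B cells or other leukocytes in these values was not tested.

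TA replicate 2 had the highest values of Tnf (489), Tnfrsf19 (568), Tnfrsf4 (391), Tnfrsf18 (356), Edar (178) and Fasl (127 normalized counts) of all 15 libraries. The same library had the highest sum of the 4 keratinocyte markers, 65413 normalized counts, against 777 to 11931 in the other TA libraries, 976 to 5442 in EVP and 51.1 to 1652 in D. All 4 keratinocyte markers were higher in TA than in D and 2 of 4 were higher in EVP than in D. The part of keratinocytes in these values was not tested. The 5 mast cell markers were also higher in both EVP and TA than in D, with sums of 5.53 to 14729 in EVP, 4074 to 93522 in TA and 0 to 199.8 in D, and their part in the members' values was not tested.

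**Figure D3:**
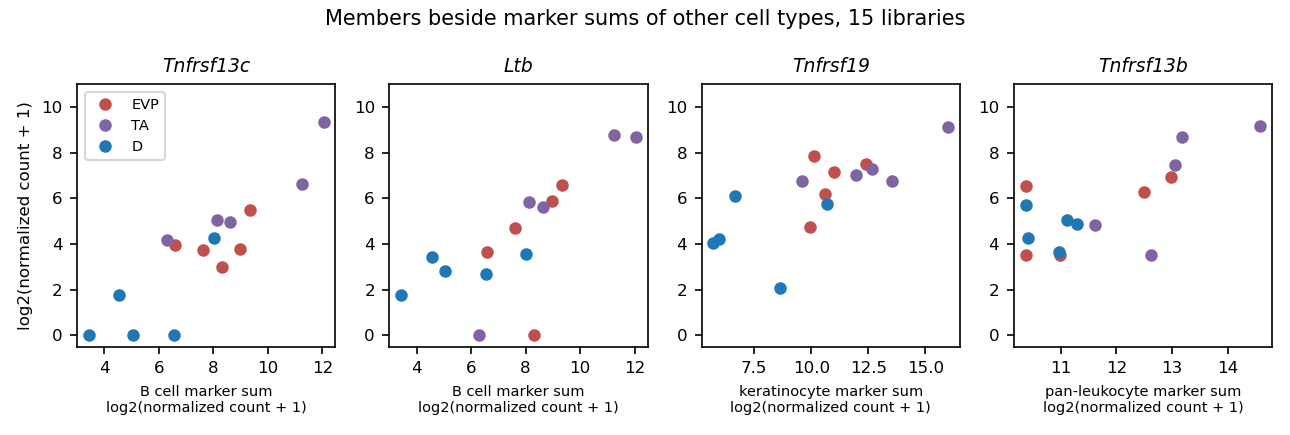
Level of 4 members (vertical, log2(normalized count + 1)) against the summed level of markers of another cell type (horizontal, same scale) in the 15 libraries, colored by population. The highest Tnfrsf13c and Ltb values and the highest B cell sums belong to TA replicates 3 and 4, the highest Tnfrsf19 value and keratinocyte sum to TA replicate 2, and the highest Tnfrsf13b value and pan-leukocyte sum to TA replicate 4.

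Ligands were then set beside their textbook receptors. Of 21 such pairs, 9 had both partners past the threshold between EVP and D. Taken singly, 60% of the members and 19.0% of all genes passed it. In 5 pairs the partners were higher in different populations. The ligands Tnfsf8, Tnfsf9 and Tnfsf15 were higher in EVP and their receptors Tnfrsf8 (CD30), Tnfrsf9 (4-1BB) and Tnfrsf25 (DR3) in D. Tnfsf18 was higher in D and its receptor Tnfrsf18 (GITR) in EVP, and Tnfsf10 (TRAIL) was higher in D while its decoy Tnfrsf11b was higher in EVP. In 4 pairs both were higher in the same population: Tnfsf10 with Tnfrsf10b and with Tnfrsf22 in D, and Tnfsf11 with Tnfrsf11b and Tnfsf12 with Tnfrsf12a in EVP. The opposed pair that passed in every alternative tried was Tnfsf9 with Tnfrsf9, along with Tnfsf10 and Tnfrsf11b.

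**Figure D4:**
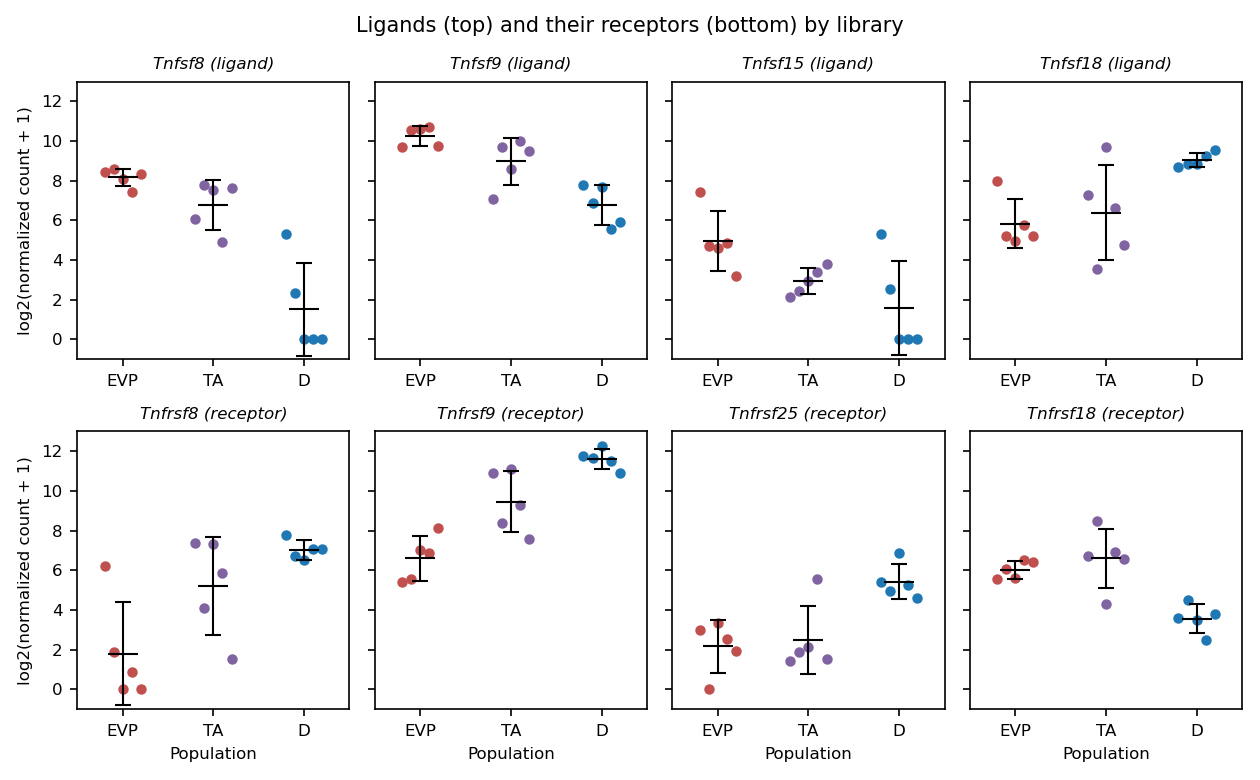
Level of 4 ligands (top) and their receptors (bottom) in each library (points), with the mean and SD of log2(normalized count + 1) over the 5 libraries of a population. Shown are 4 of the 5 pairs whose partners were higher in different populations, and none of the 4 pairs higher in the same population. Tnfsf8, Tnfsf9 and Tnfsf15 fall from EVP to D while Tnfrsf8, Tnfrsf9 and Tnfrsf25 rise, and Tnfsf18 and Tnfrsf18 do the opposite.

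Family genes often lie next to each other in the genome, and 23 of the 44 were within 500 kb of another. Among the 14 adjacent pairs, 10 had both genes tested and 3 had both genes past the threshold between EVP and D. Taken singly, 60% of the members and 19.0% of all genes passed it, so the 3 pairs are not read as a result about neighbors. Tnfsf15 and Tnfsf8 on chromosome 4, 86.2 kb apart, were both higher in EVP, and Tnfrsf26 and Tnfrsf22 on chromosome 7, 6.08 kb apart, were both higher in D. Tnfsf4 and Tnfsf18 on chromosome 1, 76.2 kb apart, went in opposite directions (3.01 and -3.20 on the log2 scale). Tnfrsf8, which was higher in D, lies 20.3 kb from Tnfrsf1b, which did not pass.

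**Figure D5:**
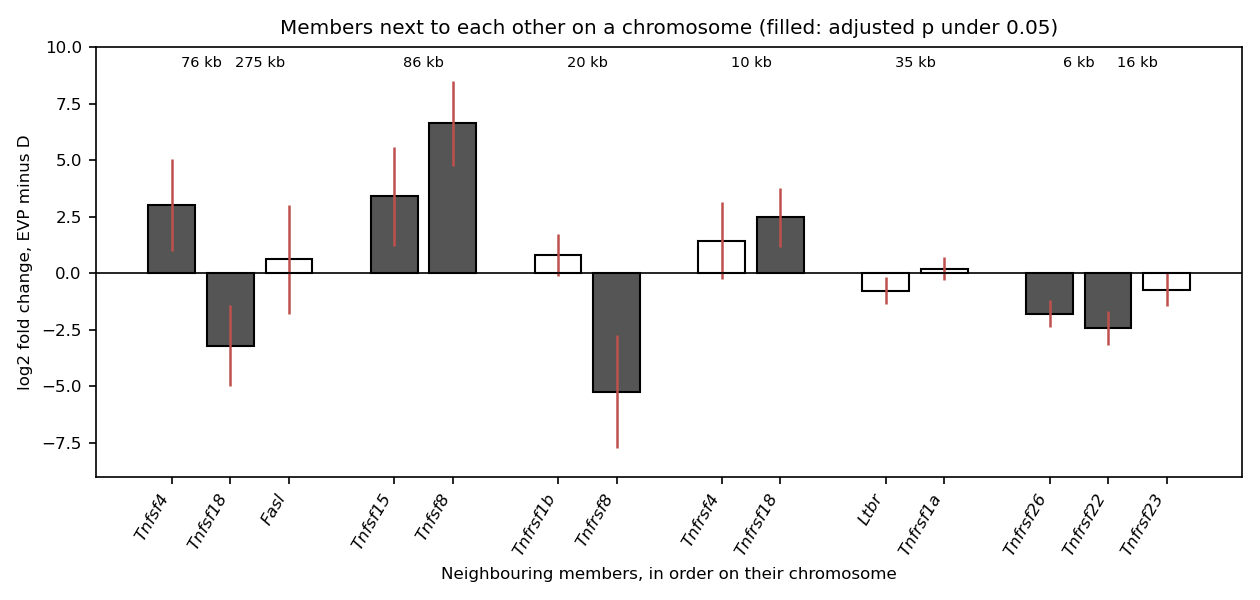
Log2 fold change, EVP minus D, of members that lie next to each other on a chromosome, with 95% intervals from limma as red lines and the distance between neighbors above. Filled bars passed an adjusted p of 0.05. The Tnfsf4 and Tnfsf18 bars point in opposite directions, the Tnfsf15 and Tnfsf8 bars in the same one.

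Genes that act with or downstream of the receptors were read from a list chosen by function, with earlier results of these data known. Of 44 adaptors, kinases, ubiquitin enzymes, NF-kB subunits, inhibitors and sheddases, with the ligand Eda and the receptor Relt, 7 passed between EVP and D. Over all genes tested 19.0% passed. With DESeq2 on the whole reads 10 of the 44 passed, beside 5546 of all 25549 genes. Of the 7, 4 were higher in EVP (11.6% of all genes) and 3 in D (7.46% of all genes). Eda, the ectodysplasin ligand, was higher in EVP (3.78 ± 0.93, adjusted p = 0.007), as were Tnfaip3, the NF-kB inhibitor A20 (1.69 ± 0.38, adjusted p = 0.00326), Birc3 and Nfkbia. Casp8, the initiator caspase of death receptors, was higher in D, at 3062 to 3983 normalized counts against 772 to 1403 in EVP (-1.74 ± 0.19). Adam10, a sheddase of several ligands, was also higher in D, at 6613 to 8671 against 1791 to 2763 (-1.73 ± 0.24), as was Tnip1. The list had 1 call between EVP and TA (Casp8), beside 3.50% of all genes, and 4 between TA and D, beside 12.5% of all genes, with Tnfaip3 higher in TA and Adam10, Ripk1 and Casp8 higher in D. Its median difference between EVP and D was -0.13, against 0.46 over all genes.

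Of 24 textbook NF-kB target genes, 15 passed between EVP and D, beside 19.0% of all genes. The list was chosen with earlier results of these data known, so its share is not independent support. Of these, 14 were higher in EVP (11.6% of all genes) and 1, Sele, the endothelial adhesion molecule E-selectin, was higher in D (7.46% of all genes). The median difference was 1.54, against 0.46 over all genes. The largest were Ptgs2, which encodes cyclooxygenase-2 (5.66 ± 0.41), the chemokines Cxcl1 (4.71 ± 0.40) and Ccl20 (4.60 ± 1.22), and the growth factor Csf1 (4.23 ± 0.29). Between TA and D 12 passed (12.5% of all genes), 10 higher in TA (8.21% of all genes) and 2, Sele and Tnfaip2, higher in D (4.31% of all genes). Between EVP and TA 3 passed (3.50% of all genes), namely Il6, Csf1 and Ccl2, all higher in EVP. The 7 fibroblast markers were all higher in EVP than in D as well, and their part in the result was not tested.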

How the data were processed

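RNA of the 15 sorted samples was made into cDNA with oligo-dT priming (Smart-Seq2, 12 PCR cycles). Per the labels and the study's methods, reads were aligned with STAR 2.5.3a to GRCm38 with Ensembl annotation, counted per gene with HTSeq-count and divided by DESeq2 1.10.1 size factors. The deposited values are this signal, normalized counts per gene made by the authors. The strand setting of the counting is not given in the sources used here. All values came back as whole reads within a tolerance of 1e-06, so read totals and the worth of 1 read were known. Tables of the authors' own comparisons (fold changes and p-values) were not used.

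Samples were grouped by their labels into EVP, TA and D. The test was limma 3.58.1 (R 4.3.3) with a mean-dependent prior on log2(normalized count + 1), with 1 coefficient per population over all 15 libraries and Benjamini-Hochberg adjustment over 25549 genes with a mean of at least 5. The threshold was an adjusted p of 0.05, two-sided. A fold change on this scale understates the change of low genes. A count of 3 reads was taken as the floor, worth 1.81 to 10.5 normalized counts, and no member was at or under it in every library of a population. Alternatives were other pseudocounts, minimum means and scalings, array weights, edgeR 4.0.16 and DESeq2 1.42.0 on the whole reads, a replicate block and left-out libraries. Data were also simulated for EVP against D, with 200 changed genes among 25006 tested. There limma found 2 of 67 genes changed by 1 on the log2 scale. It found 47 of 67 changed by 2 and 66 of 66 changed by 3. These shares do not give the sensitivity in the real libraries, where 4859 genes passed and the adjustment was therefore less strict. In the real libraries Tnfrsf12a passed between EVP and D with a difference of 0.96.

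Every member was named. Of the signaling and NF-kB target lists, at most the 4 largest differences per comparison and direct partners or sheddases of members are given with values, and single genes behind counts of 5 or fewer were named after their values were seen. The members and lists were chosen with earlier results of these data known. Exon lengths, for 99.8% of genes, and overlaps came from GENCODE M21 (GRCm38), and promoters from RefSeq. The highest correlation between libraries of 1 population was 0.981, and no pair was identical.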

Additional observations from a re-analysis of the deposited data

Results flagged for a closer look

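In 11 of 120 sets of 5 libraries (40 members in 3 populations), 1 library lay far from the other 4 by Dixon's criterion applied to log2(normalized count + 1). Its nominal rate of about 1 of 20 sets is for normally distributed values. It does not hold for low counts with several libraries at 0, so the 11 cannot be compared with it. The values below are normalized counts. On the scale of the counts themselves 29 sets met the criterion, 8 of them in common, and Ngfr in EVP replicate 4 (6359) and Tnfsf15 in EVP replicate 1 (172) met it on that scale only. Of the 11 sets, 6 were in libraries numbered 1, and 2 of them in EVP replicate 1, the shallowest library. EVP replicate 1 was the highest EVP library for Eda2r, at 607.4 normalized counts against 108 to 176, and for Tnfsf18, at 249.3 against 30.3 to 53.5. D replicate 1 was the highest D library for Edar (6.864), Tnfrsf17 (27.46) and Tnfsf11 (15.1 normalized counts). Each of these was at 0 in the other 4 D libraries, so any read in D replicate 1 met the criterion. TA replicate 1 was the lowest TA library for Tnfsf12, at 6.894 against 16.2 to 19.6.

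The other 5 were spread over libraries. Tnfrsf19 stood out in TA replicate 2, at 567.9 normalized counts against 107 to 154, and Tnfrsf25 in TA replicate 4, at 45.44 against 1.72 to 3.35. Low values were those of Cd27 in D replicate 4 (4.507 against 24.2 to 40.8), Tnf in D replicate 3 (1.563 against 27.0 to 63.2) and Tnfrsf11b in D replicate 2 (0 against 34.4 to 112).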

How the results depend on the processing

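The members called between EVP and D (24) and between TA and D (14) stayed within 1.5 times their count in every alternative, with 17 to 25 and 11 to 15 when 1 library was left out. The 3 between EVP and TA became 1 with edgeR, 5 with DESeq2, 0 without the 3 libraries numbered 1 and 0 without TA replicates 3 and 4, an alternative chosen after seeing the data, and 0 to 4 with 1 library left out. Of the signaling list, the 7 calls between EVP and D became 17 with array weights and 13 with only those populations in the fit. Its 1 call between EVP and TA (Casp8) became 2 with DESeq2, 0 without the libraries numbered 1 (10 at an unadjusted p under 0.05 in limma) and 0 without TA replicates 3 and 4 (5 at that p). Its 4 calls between TA and D became 7 with a minimum mean of 20, 8 with DESeq2, 10 with array weights, 7 with the replicate block, 11 without the libraries numbered 1 and 2 to 10 with 1 library left out.

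The 3 NF-kB target calls between EVP and TA became 6 with DESeq2, 5 with the replicate block, 1 to 5 with 1 library left out, and 0 without the libraries numbered 1 or without TA replicates 3 and 4 (10 at an unadjusted p under 0.05 in limma each time). Over all genes, array weights gave 7609 calls between EVP and D and 5054 between TA and D, and quantile normalization gave 2117 between TA and D. Between EVP and TA, DESeq2 gave 1919, leaving out the libraries numbered 1 gave 104, leaving out TA replicates 3 and 4 gave 143, and leaving out 1 library gave 429 to 1214, against 893. The causes of these shifts were not tested.

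With the replicate number as a block, 26 members passed between EVP and D, 4 between EVP and TA and 16 between TA and D, with the gains of Ltbr and Tnfrsf13c in the first, Tnfsf12 in the second and Tnfrsf10b and Tnfsf18 in the third, and no loss. Same-numbered libraries deviated together with correlations of -0.14 to 0.69, with values under 0.1 for the libraries numbered 2 in the comparisons with D and for those numbered 3 in both comparisons with TA. The libraries numbered 1, 2, 4 and 5 correlated best with their own number in every comparison and those numbered 3 in none. Since not every pair passed 0.1 and no label ties the numbers to animals or days, they were taken to share only a number. Of single-gene values under alternatives, 1239 kept their side of the threshold, 155 lost it, 32 gained it and 0 of the called ones changed sign, while 23 of 79 uncalled member differences did. Depth limits members near 3 reads most in EVP replicate 1.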
